A study of Homo sapiens with 4 samples.

Results

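The ARID family of genes was examined on 4 Affymetrix 3′ expression arrays of HuCCT1, by its label an established line of human cholangiocarcinoma (bile duct cancer). The arrays were 2 of cells labelled ARID1A wild type and 2 of cells labelled ARID1A knockout. All cells were grown in serum-containing RPMI medium. The knockout was made, per the labels' protocols, with lentiCRISPR v2, a lentiviral vector that carries Cas9 and a guide RNA, followed by puromycin selection and cloning by limiting dilution. The labels do not say how many clones were used, whether the wild-type cells received a vector, or whether replicate arrays are of separate cultures. The p-values below therefore reflect the spread among 4 arrays alone, and that spread may be technical. The members were the 9 genes ARID1A, ARID1B, ARID2, ARID3A, ARID3B, ARID4A, ARID4B, ARID5A and ARID5B, each taken through every probe set whose single gene symbol in the platform annotation named it. This gave 28 of the 54613 probe sets on the array, for 8 of the 9 genes and of the 19775 genes measured in all. ARID4A had no probe set under this rule and was not analysed here, and 2 probe sets that name ARID4B together with another gene were left out.

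The members share the AT-rich interaction domain, a helical DNA-binding fold. ARID1A and ARID1B are alternative subunits of the canonical BAF form of the SWI/SNF chromatin remodelling complex, and a complex holds one or the other. ARID2 is the corresponding subunit of the PBAF form, the ARID3 and ARID5 proteins bind AT-rich DNA, and ARID4A and ARID4B bind the retinoblastoma protein and join the SIN3 deacetylase complex. ARID1A is a tumour suppressor often inactivated by truncating mutations in bile duct cancer, where its paralogue ARID1B can supply the remaining complexes.

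The guide is shown because it is what the labels give as the origin of the knockout. The capitals mark its last 12 bases, the seed next to the PAM of Cas9, on which target recognition depends most.
ARID1A guide: tgagcgagACTGAGCAACAC
The guide has 20 bases and a GC content of 55.0%. It was searched on both strands in the 35116 RefSeq windows (GRCh38.p14) that run from 250 bases before to 50 bases after a gene's start. It had an exact match in 0 windows, its best match in the ARID1A window had 8 mismatches, and the closest in any window had 4. The windows cover only the bases around each gene's start. These counts therefore do not show whether the guide matches ARID1A, or any other gene, outside them. No genome was used here, so the place of the cut within ARID1A was not mapped, nor was its place relative to the probes.

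Values are the deposited log2 values, which a method (RMA) had summarised over the probes of each probe set and scaled to one distribution in all arrays, so a difference of 1 is 2-fold. Every probe set was tested with limma, a linear model that shares information on the spread between probe sets, and was called where its p, adjusted over all 54613 by Benjamini-Hochberg, was under 0.05. Array medians lay between 3.99 and 4.03. A test for sample mix-ups found that 2 of the 4 arrays differed from the other 2. The groups are therefore named only as labelled, and loss of ARID1A cannot be told apart from any other difference between the cells of the groups. Markers were read by the brightest probe set of each gene, the one with the highest mean over the 4 arrays. The keratin genes KRT7, KRT19, KRT8 and KRT18 stood at 10.1 or above in all 4 arrays. Of the 8 measured cholangiocyte markers 4 were lower in the knockout-labelled arrays, EPCAM (−4.73 ± 0.12, SE), CFTR (−4.40 ± 0.13), KRT7 (−2.32 ± 0.11) and KRT19 (−0.92 ± 0.12), and 2 were higher, SPP1 (8.58 ± 0.20) and KRT8 (0.82 ± 0.14). Over all their probe sets, CFTR was called lower in 3 of 6, KRT7 in 1 of 4 and KRT19 in 1 of 2. SPP1 was called higher in 1 of 2, while EPCAM and KRT8 have 1 probe set each. The mean level of the 8 markers was 9.60 and 9.71 in the wild-type arrays against 9.39 and 9.30. SPP1 alone read 2.47 and 2.95 against 11.41 and 11.17, so its rise offset falls of other markers in this mean. Of 7 hepatocyte markers 1 was lower, SERPINA1 (−4.57 ± 0.32), and 2 were higher, FGB (2.20 ± 0.16) and ALB (1.73 ± 0.38). ALB read 1.77 and 1.81 in the wild type against 4.09 and 2.95, and both FGB and ALB lay under the median level of the array. Of 6 fibroblast markers 2 were lower, LUM (−5.24 ± 0.13) and COL1A1, which read 8.98 and 8.95 in the wild type against 4.22 and 4.18, and 0 were higher. Of 4 leukocyte markers 1 was lower, CD14 (−1.95 ± 0.20), while PTPRC, the pan-leukocyte marker, was at most 2.15 in any array. Of 4 endothelial markers 0 were called (limma, and 1, CDH5, had an unadjusted p under 0.05). Taken the same way, 34% of all genes were called, 18.8% higher and 15.2% lower, and 8694 of 19775 had an unadjusted p under 0.05 (limma). The shares of the marker lists were 75% (cholangiocyte), 42.9% (hepatocyte), 33.3% (fibroblast), 25% (leukocyte) and 0% (endothelial), of 4 to 8 genes each. The part of these marker differences in the results below was not tested.

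ARID1A was lower in the knockout-labelled arrays in 3 of its 4 probe sets. The brightest, 218917_s_at, read 8.55 and 8.61 in the wild type against 6.15 and 5.95. The difference was −2.53 ± 0.13 (SE, limma adjusted p = 0.000395), or 5.76-fold, with a 95% interval from −2.85 to −2.20. The groups were separated by more than 2 log2 units, while arrays of a group lay within 0.21 of each other.

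The second ARID1A probe set, 212152_x_at, read 7.95 and 7.76 in the wild type against 6.19 and 5.75, a difference of −1.88 ± 0.19 (SE, limma adjusted p = 0.00254). The third, 210649_s_at, read 4.57 and 5.02 against 2.95 and 2.85, a difference of −1.89 ± 0.18 (SE, limma adjusted p = 0.00237). The groups did not overlap in either of them. The fourth, 207591_s_at, read 3.10 and 2.85 against 2.66 and 3.07, with overlapping groups and a difference of −0.11 (limma adjusted p = 0.745). It lay at percentile 30.7 of all probe sets by mean level. A fall as large as that of 218917_s_at would have taken it below the lowest value on any array (0.87 to 1.03), so it could not have shown one of that size. A fall the size of that in 212152_x_at would not have taken it there. The array gives no detection call, so a value in this range shows only that the probe set was dim.

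Whether probe sets of a gene gave one size of difference was tested on the values of each probe set minus those of the brightest, in a fit over all 21316 such probe sets. The fall was smaller by 0.65 ± 0.18 in 212152_x_at than in 218917_s_at (limma adjusted p = 0.0467). In 210649_s_at it was smaller by 0.63 ± 0.19 (limma adjusted p = 0.0612), but the knockout-labelled values of that probe set lie in the dim range of 207591_s_at, so the size of its fall may be cut short. The 3 probe sets that fell shared a direction, and the brighter pair gave 5.76-fold and 3.68-fold. All 4 end in _s_at or _x_at, the suffixes of probe sets that can match more than one transcript or share probe sequence with others, so ARID1A had no value left when such probe sets were excluded.

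**Figure D1:**
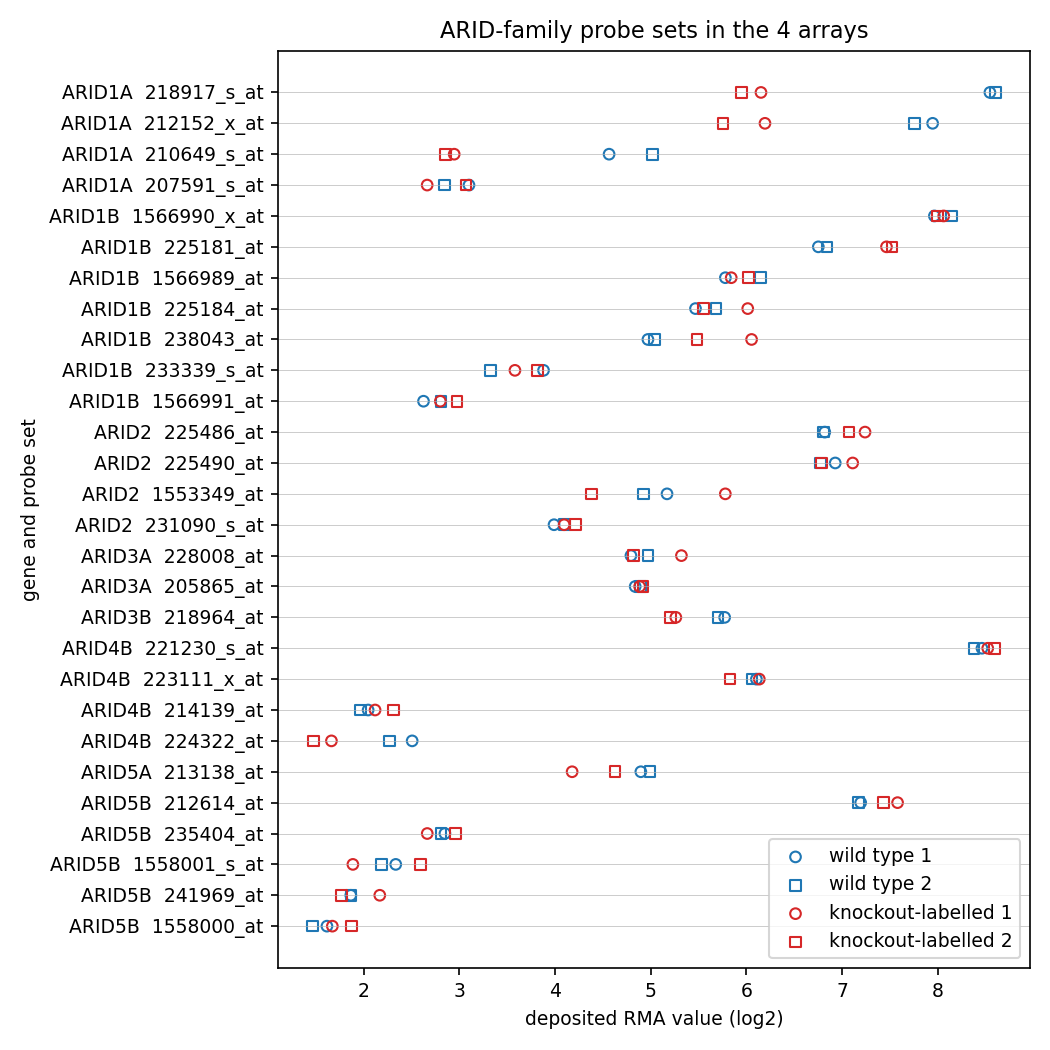
Deposited log2 RMA value (horizontal axis) of each of the 28 ARID-family probe sets (vertical axis) in the 2 wild-type (blue) and 2 knockout-labelled (red) arrays, with circles for replicate 1 and squares for replicate 2. The ARID1A rows, but for 207591_s_at, show the red points well to the left of the blue, while most rows of the other genes overlap or lie close together.

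Across the brightest probe sets of 19775 genes, the ARID1A difference was matched or exceeded by a fall in 436 genes (2.20%), ARID1A included, and 772 genes (3.90%) differed by more in either direction. The 5 genes whose values over the 4 arrays, each centred on its own mean, lay closest to those of ARID1A were IFIH1, a sensor of viral RNA, TNIP1, an inhibitor of NF-kB signalling, TGFBI, a secreted matrix protein, SAV1, a Hippo pathway adaptor, and GSTM3, a glutathione transferase. Their root-mean-square distances from ARID1A were 0.021 to 0.027 log2 units over 4 arrays, and their differences ran from −2.55 to −2.48. They were chosen for this likeness among 19774 genes, so it is a description with no test. In IFIH1 only 1 of 3 probe sets was called lower, while TNIP1, SAV1 and GSTM3 were lower in every probe set and TGFBI has 1. ALDH1A1, the aldehyde dehydrogenase named in the study's title, stood at 1.86 and 1.94 in the wild type against 10.77 and 10.53 in its only probe set, a difference of 8.75 ± 0.13 (SE, limma adjusted p = 6.51e-05).

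ARID1B, the closest paralogue of ARID1A, was higher in the knockout-labelled arrays in 1 of its 7 probe sets. That probe set, 225181_at, read 6.75 and 6.84 in the wild type against 7.47 and 7.52. The difference was 0.70 ± 0.11 (SE, limma adjusted p = 0.0105), or 1.62-fold, and the groups did not overlap. A further probe set, 238043_at, read 4.97 and 5.04 against 6.05 and 5.48, with a difference of similar size, 0.76 ± 0.21 (SE, limma adjusted p = 0.0563), which missed the threshold. It passed under 5 other settings with all 4 arrays (limma adjusted p 0.0212 to 0.0444). It did not pass with the replicate block (0.0692) or with _x_at and _s_at probe sets excluded (0.0626). Its difference moved between 0.48 without knockout-labelled replicate 1 and 1.05 without knockout-labelled replicate 2. Its groups did not overlap either, and its knockout-labelled arrays lay 0.57 apart.

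The other 5 ARID1B probe sets did not pass. The brightest, 1566990_x_at, read 7.97 and 8.15 in the wild type against 8.06 and 8.00, a difference of −0.02 ± 0.12 (SE, limma adjusted p = 0.925). Its interval, from −0.34 to 0.29, allows a rise of at most 1.22-fold in this probe set, while that of 225181_at ran from 1.33-fold to 1.97-fold. By its _x_at suffix 1566990_x_at can share probe sequence with others, which also limits the comparisons with it below. The remaining 4 differed by −0.03 to 0.21, and in all 5 the groups overlapped, 225184_at for instance reading 5.47 and 5.68 against 6.01 and 5.55. Of these 5, 1566990_x_at, 1566989_at and 1566991_at were designed on one sequence record, so they are not independent readings of the gene.

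The ARID1B probe sets thus did not give one answer, and the disagreement was itself past the threshold. Relative to the brightest probe set, 225181_at differed by 0.72 ± 0.15 (limma adjusted p = 0.0214) and 238043_at by 0.79 ± 0.21 (limma adjusted p = 0.0436), while the other 4 did not depart from it (limma adjusted p between 0.438 and 0.976). Over all members 5 of 20 probe sets departed from the brightest of their gene, against 25.6% of the 21316 compared on the array, a share close to that of the family. Among the 5 is the ARID1A probe set 207591_s_at, which was dim, and the cause of its departure was not tested. With either wild-type array left out, 1 probe set of the family departed.

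ARID2, the subunit that marks PBAF, did not pass in any of its 4 probe sets. Its brightest, 225486_at, read 6.82 and 6.81 in the wild type against 7.24 and 7.07, a difference of 0.34 ± 0.12 (SE, limma adjusted p = 0.101). The groups did not overlap there, and the interval ran from 0.04 to 0.65. The other 3 differed by 0.03 to 0.11, with overlapping groups. In 1553349_at the knockout-labelled arrays read 5.78 and 4.38, a gap of 1.40 that is the widest between replicates among all 28 probe sets, so that probe set allows changes from −1.16 to 1.23.

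ARID3A, the AT-rich DNA-binding factor also called Bright, gave overlapping groups in both of its probe sets. The first, 228008_at, read 4.79 and 4.97 in the wild type against 5.32 and 4.82 (difference 0.19 ± 0.20, SE, limma adjusted p = 0.577). Its interval, from −0.33 to 0.70, allows a rise of up to 1.63-fold. The second, 205865_at, read 4.84 and 4.89 against 4.88 and 4.92 (difference 0.04 ± 0.11, SE, limma adjusted p = 0.860), and its interval, from −0.24 to 0.31, allows a rise of at most 1.24-fold. ARID3B, its paralogue, was lower in its only probe set, 218964_at, which read 5.77 and 5.70 against 5.26 and 5.21. The difference was −0.50 ± 0.11 (SE, limma adjusted p = 0.0274), or 1.42-fold, with groups that did not overlap. This call was lost without any one of the 4 arrays, with an adjusted p between 0.0708 and 0.179.

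ARID4B, a SIN3 complex subunit, was called in 1 of its 4 probe sets, which was its dimmest. The brightest, 221230_s_at, read 8.46 and 8.38 in the wild type against 8.52 and 8.59, a difference of 0.14 ± 0.11 (SE, limma adjusted p = 0.450) with groups that lay close but did not overlap. The called one, 224322_at, read 2.51 and 2.27 against 1.66 and 1.48, a difference of −0.82 ± 0.14 (SE, limma adjusted p = 0.0139). It lay at percentile 11.8 by mean level, and it departed from the brightest by −0.96 ± 0.17 (limma adjusted p = 0.0120). Its call was also lost without any one array (adjusted p 0.0549 to 0.133). The other ARID4B probe sets, 223111_x_at and 214139_at, differed by −0.10 and 0.21 and did not pass.

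ARID5A, an RNA-binding protein that stabilises the mRNA of the cytokine IL6, has 1 probe set, 213138_at, which read 4.90 and 4.99 in the wild type against 4.18 and 4.63. The groups did not overlap, but the difference of −0.54 ± 0.18 (SE, limma adjusted p = 0.0934) did not pass, and the knockout-labelled arrays lay 0.45 apart. ARID5B, which works with the histone demethylase PHF2, was read at a high level in 1 of its 5 probe sets. That one, 212614_at, read 7.20 and 7.17 against 7.58 and 7.44, without overlap (difference 0.33 ± 0.12, SE, limma adjusted p = 0.109). The other 4 lay under the median level of the array, at percentiles from 4.72 to 28.8, and their differences ran from −0.02 to 0.23.

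**Figure D2:**
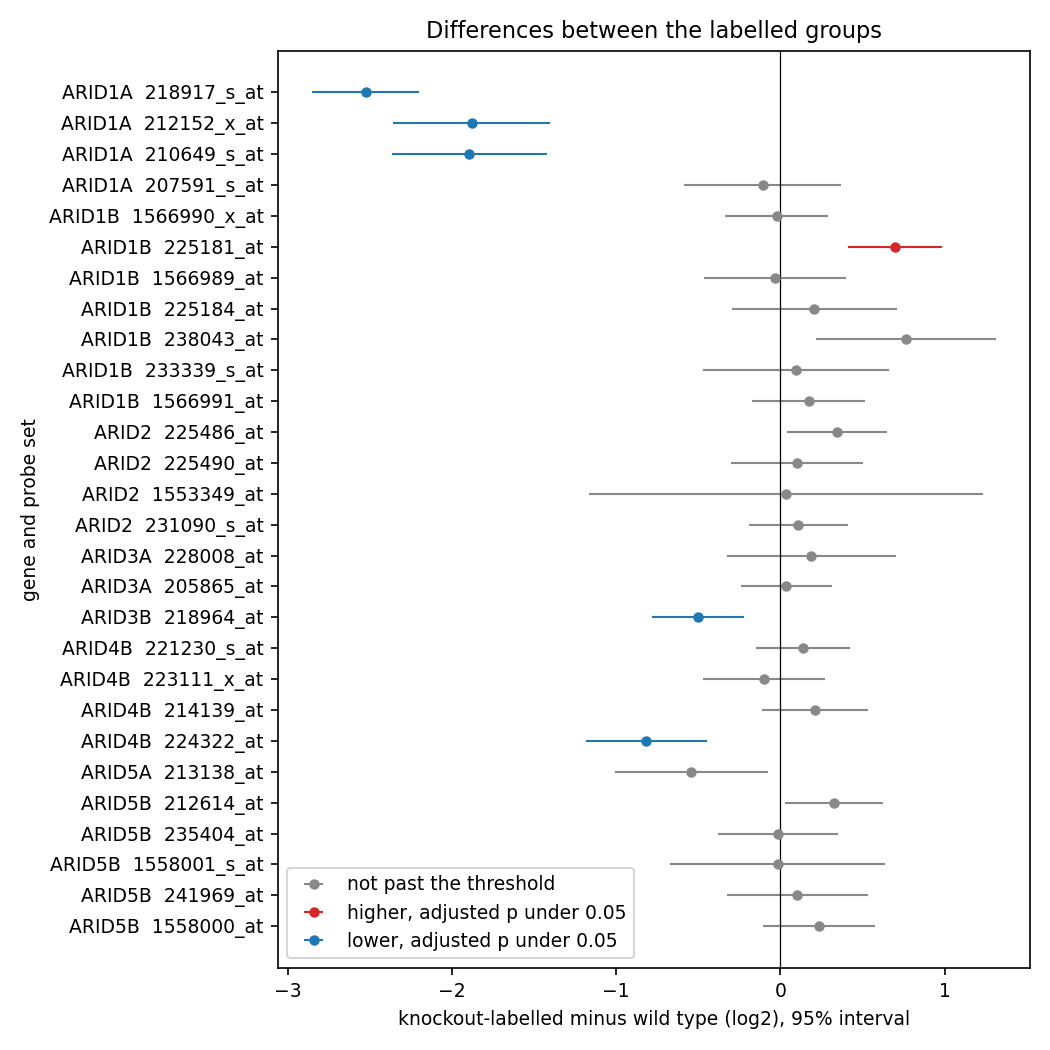
Knockout-labelled minus wild-type difference (horizontal axis, log2) of each ARID-family probe set with its 95% interval from limma, in blue where lower, red where higher and grey where not past the threshold of adjusted p under 0.05. The 3 called ARID1A probe sets lie between −2.53 and −1.88, and the called probe sets of ARID1B, ARID3B and ARID4B lie between −0.82 and 0.70.

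Over the family, 6 of 28 probe sets passed the threshold, 1 higher and 5 lower, against 26.9% of all probe sets on the array (13.9% higher and 13% lower). ARID1A accounted for 3 of the 5 that were lower and for all 3 that were called and at least 2-fold apart, beside 13.1% of all probe sets. In the other 7 genes, 3 of 24 probe sets (12.5%) passed, 1 higher and 2 lower, and the median difference was 0.10, beside a median of 0.03 over the array. Of the 24, 16 had a positive difference (66.7%, against 54.0% of all probe sets). In 10 of the 24 the groups did not overlap, beside 60.3% of all probe sets. By the brightest probe set of each gene, 0 of the other 7 were called higher and 1, ARID3B, was called lower, and at an unadjusted p under 0.05 there were 4, of which ARID2 and ARID5B were higher and ARID3B and ARID5A lower. Over all genes taken the same way, 34% were called, 18.8% higher and 15.2% lower, and 8694 of 19775 had an unadjusted p under 0.05 (limma). The groups did not overlap in 5 of these 7 genes, beside 66.4% of all genes. A rise of a paralogue as ARID1A fell was therefore called in 1 probe set of ARID1B and in no other probe set of the family (limma, 4 arrays).

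The counts depended on which arrays were used, and fell furthest without a wild-type array. The 6 called probe sets became 2 without wild-type replicate 1 and 2 without wild-type replicate 2, which were 218917_s_at and 210649_s_at of ARID1A both times. The same omissions took the share called over the array from 26.9% to 4.81% and 5.08%. The ARID1A probe set 212152_x_at lost its call in both (adjusted p = 0.0739 and 0.0646), although its difference stayed between −2.10 and −1.66 over the 4 omissions. The ARID1B probe set 225181_at stayed between 0.65 and 0.74, with an adjusted p of 0.0465 without knockout-labelled replicate 1 and of 0.0559 to 0.113 without any other array.

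**Figure D3:**
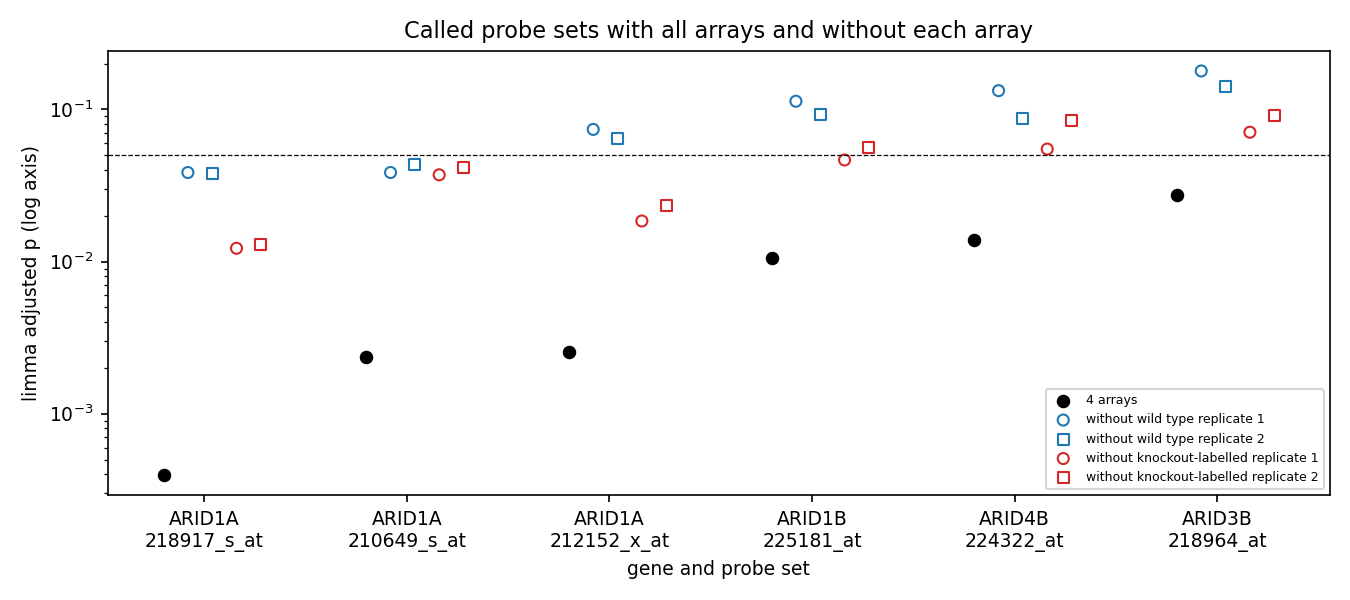
Benjamini-Hochberg adjusted p of limma (vertical axis, log scale) for the 6 called ARID-family probe sets with all 4 arrays (black) and without each array (open symbols), with the threshold of 0.05 dashed. Only 218917_s_at and 210649_s_at of ARID1A lie under the line in all 5 fits shown.

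Lists of genes related to the family are given by the brightest probe set of each gene. For genes such as BRD7, BCL11A, ING1 and RBBP4 that probe set ends in _x_at or _s_at. Counts with such probe sets excluded are therefore not over the same probe sets. Of 27 SWI/SNF subunit genes 12 were higher and 2 lower in the cells labelled knockout, with a median difference of 0.40 beside 0.06 over all genes. They were listed as BAF and PBAF partners, although the list also holds subunits of non-canonical complexes, such as BICRAL. SMARCD3, an accessory subunit of muscle-type complexes, stood at 4.18 and 4.01 against 6.31 and 6.27 (difference 2.19 ± 0.12, SE), though its other probe set did not pass. BCL11A rose by 1.66 ± 0.11 (3 of 4 probe sets called higher), BICRAL, a subunit of non-canonical complexes, by 1.66 ± 0.12 (2 of 2), BCL7A by 1.18 ± 0.22 (1 of 2) and BRD7, the bromodomain subunit of PBAF, by 1.10 ± 0.11 (4 of 4). The 2 that were lower were PBRM1, the PBAF subunit with several bromodomains (−0.92 ± 0.11), and DPF2 (−0.71 ± 0.12). The ATPase genes SMARCA4 and SMARCA2 differed by 0.40 ± 0.12, which did not pass (limma adjusted p = 0.0669), and by 0.52 ± 0.13 (limma adjusted p = 0.0422). Without wild-type replicate 1 or 2 the list had 3 called genes each time, without knockout-labelled replicate 2 it had 7, and with the _x_at and _s_at probe sets excluded it also had 7.

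Of 14 measured genes of the SIN3 complex, which ARID4A and ARID4B join, 7 were higher and 1 lower, with a median of 0.42. RBBP7, a histone chaperone, fell from 10.59 and 10.53 to 9.33 and 9.44 (−1.18 ± 0.11, SE). HDAC2, a deacetylase, rose by 0.80 ± 0.11 (2 of 2 probe sets), SUDS3 by 0.75 ± 0.12 (2 of 2), the scaffold SIN3A by 0.70 ± 0.11 (2 of 4) and RBBP4 by 0.65 ± 0.11 (3 of 6). The 8 called genes became 0 without either wild-type array, 4 and 3 without knockout-labelled replicate 1 and 2, and 5 with the _x_at and _s_at probe sets excluded.

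Of 11 RB and E2F genes 6 were higher and 0 lower, with a median of 0.50 (limma; at an unadjusted p under 0.05 there were 9 genes, 2 of them lower, E2F1 at −0.32 and TFDP2 at −0.31). E2F2 rose by 1.23 ± 0.12 (1 of 3 probe sets), E2F3 by 1.20 ± 0.13 (2 of 2), E2F5 by 1.05 ± 0.14 (1 of 2), RBL2, a pocket protein that represses E2F targets in resting cells, by 0.92 ± 0.11 (1 of 2), and RB1, the retinoblastoma gene, by 0.58 ± 0.12 (1 of 2). The 6 became 0 without either wild-type array and 3 without knockout-labelled replicate 2. Of 5 measured genes in the list of further ARID-domain genes and PHF2, 2 were higher and 0 lower (limma, and 2 in all at an unadjusted p under 0.05). JARID2, a polycomb cofactor, rose by 0.79 ± 0.15 (2 of 3 probe sets) and PHF2 by 0.82 ± 0.13 (1 of 2), both becoming uncalled without any one array. The demethylase genes KDM5A, KDM5B and KDM5C differed by 0.02, 0.08 and −0.25 and did not pass.

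These shares stand beside 34% of all genes called by their brightest probe set. They were 51.9% for the BAF and PBAF partners, 57.1% for the SIN3 complex, 54.5% for the RB and E2F genes and 40% for the further ARID-domain genes with PHF2. Of these 57 genes all but 2 BAF and PBAF partners were at or above the median level, and among all genes at or above it 47.7% were called. Brighter probe sets were called more often, 43.4% of those at or above the median level against 10.4% of those under it. Among the 24 family probe sets without ARID1A, 16 were at or above the median level and 2 of these were called. Beside the list counts at an unadjusted p under 0.05, 8694 of the 19775 genes passed that cut (limma).

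**Figure D4:**
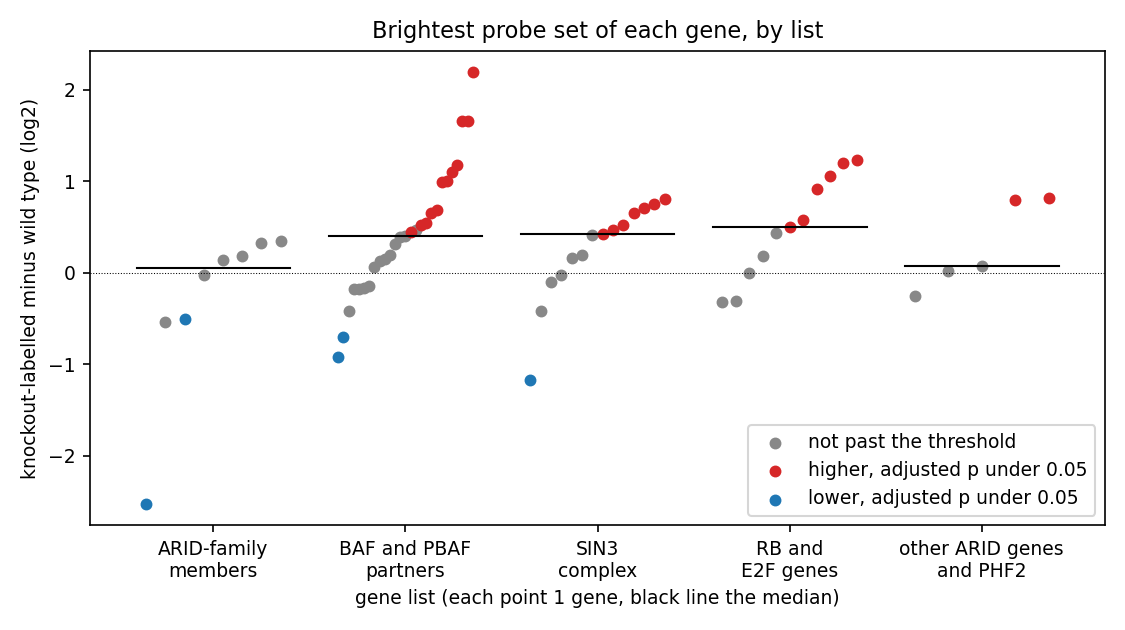
Knockout-labelled minus wild-type difference (vertical axis, log2) of the brightest probe set of each gene, for the 8 measured ARID-family members and 4 lists of related genes (horizontal axis), with the list median as a black line and colours as called by limma. ARID1A is the lone point at −2.53, and the BAF and PBAF, SIN3 and RB and E2F medians lie between 0.40 and 0.50.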

How the data were processed

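Total RNA was labelled with a 3′ IVT kit, per the labels' protocols. Per the submitters' processing notes the authors used the affy package and RMA (versions not given), and the deposited values, 1 column per array, were taken to be log2 as RMA produces. RMA subtracts background and forces all arrays to one distribution, so overall brightness is lost, and it makes no detection call, so dim values are uncertain. Precision is limited by the number of arrays.

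Names came from the platform annotation of 2016, with a single symbol for 41091 probe sets, more than one for 1801 and no symbol for 11721. Of the 41091, 41037 were matched by gene identifier to RefSeq (GRCh38.p14). The gene annotation has no coordinates on a build named for the array, so none are given. Groups came from the sample titles.

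All 54613 probe sets were fitted with limma 3.58.1 in R 4.3.3 (functions lmFit and eBayes at their defaults), without covariates or a filter. Differences are knockout-labelled minus wild type with the moderated standard error, and p-values were adjusted over all probe sets (Benjamini-Hochberg, called under 0.05). For a gene in a list its brightest probe set, by mean over the 4 arrays, was used. Values of a probe set minus the brightest of its gene were fitted in the same way, a step added after the data were seen. Both fits were tested on simulated data. In the fit over all probe sets, 67% of simulated 4-fold changes and 1% of simulated 2-fold changes were called, with 6 unchanged probe sets. Far fewer probe sets were changed in the simulation than were called in the data, so these rates do not carry over directly. The named genes were all members, ALDH1A1, up to 5 called genes per list by size, and the 5 genes nearest ARID1A. PBRM1, DPF2, SMARCA2, SMARCA4, E2F1, TFDP2, KDM5A, KDM5B and KDM5C and the marker genes were named outside that rule, after their values were seen. The members and lists were chosen with earlier results of these data known.

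Alternatives were a variance trend with robust eBayes, fits by gene, exclusion of probe sets ending in _x_at or _s_at or of those under the 40th or 60th percentile, 2 rescalings, the replicate block and leaving out each array. Figures were drawn with matplotlib 3.10.9 in Python 3.11.15.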

Additional observations from a re-analysis of the deposited data

How the results depend on the processing

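The brightest ARID1A probe set kept its direction and its call under every alternative that held it, between −2.63 and −2.42 without each array in turn (adjusted p 0.0122 to 0.0385) and at −1.60 with the mean of its 4 probe sets. Without an array the lone array of a group was taken to vary like the other group. The probe sets called over the array ran from 2627 to 10167 over these omissions, and the called members from 2 to 5. Beside the 14686 probe sets called as reported, fits by gene called 7657 (brightest probe set) and 7434 (mean of all probe sets), with 2 and 3 members, and the fit that excluded _x_at and _s_at probe sets called 9125, with 3 members and none of ARID1A left to test. The titles number the replicates alike, but the deviations of same-numbered arrays correlated at 0.056, so the numbers were not taken as pairs. With the replicate block 12903 probe sets and 5 members were called, ARID3B losing its call (adjusted p = 0.0606) and the SIN3 list going from 8 to 5 called genes. The ARID1B probe set 238043_at was called under 5 alternatives with all 4 arrays (adjusted p 0.0212 to 0.0444), ARID2 225486_at without probe sets under the 60th percentile (0.0364), ARID5B 212614_at there (0.0382) and with the variance trend (0.0455), and ARID5A with the mean of probe sets (0.0448). The causes were not tested. No result of a member that was called changed sign. With 2 arrays a group, a probe set that was not called may still have changed.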
